A study of Mus musculus with 12 samples.

Results

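The receptors by which neutrophils sense chemoattractants were followed across all samples. They are 9 genes, Cxcr2, Cxcr1, Cxcr4, Ccr1, Fpr1, Fpr2, C5ar1, Ltb4r1 and Ptafr, out of 29737 genes in the deposited count table. The receptors were chosen by their names, with earlier results of these data known. All 9 were among the 16761 genes that passed a filter on low counts. Neutrophils from the bone marrow of wild-type mice were kept for 24 h in RPMI medium with serum. They received PBS as the vehicle, taurocholic acid (TCA), tauro-β-muricholic acid (Tβ-MCA) or glycocholic acid (GCA), with 3 samples in each of the 4 groups. TCA and GCA are cholic acid joined to taurine or to glycine, and Tβ-MCA is the taurine conjugate of a muricholic acid, a bile acid made by mice. The labels and the methods of the study both give 200 μM for TCA and GCA. For Tβ-MCA, the labels give 10 μM and the methods 200 μM, so each value of that group stands for an unsettled dose. The study's mice were female C57BL/6 animals aged 4 to 6 weeks, and neither the methods nor the labels say whether the samples of a group came from separate mice, so p-values measure the spread between these samples, which may be technical. In the methods, the cells were purified by density medium and an enrichment kit, while the labels describe a bead sort for Ly6G.

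Chemoattractant receptors are G protein-coupled receptors that signal mainly through Gi proteins to steer crawling, integrin activation, granule release and the oxidative burst. Cxcr2 binds CXC chemokines and draws neutrophils out of the marrow into blood and inflamed tissue, whereas Cxcr4 binds CXCL12 and holds them in the marrow and brings aged cells back to it. Fpr1 and Fpr2 sense formylated peptides of bacteria and mitochondria, C5ar1 the complement fragment C5a, Ltb4r1 leukotriene B4, Ptafr platelet-activating factor, and Ccr1 inflammatory CC chemokines.

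The genes lie on 6 chromosomes of GRCm38. Cxcr2 (chr1:74153989-74161246, plus strand) and Cxcr1 (chr1:74191785-74194631, minus strand) are neighbours, 30.5 kb apart. Fpr1 (chr17:17876471-17883940, minus strand) and Fpr2 (chr17:17887824-17893952, plus strand) are 3.9 kb apart and point away from each other. Cxcr4 is at chr1:128588199-128592293 on the minus strand, Ccr1 at chr9:123962124-123968692 on the minus strand, C5ar1 at chr7:16246743-16259540 on the minus strand, Ltb4r1 at chr14:55765962-55768494 on the plus strand and Ptafr at chr4:132564067-132582683 on the plus strand. The 250 bases before the RefSeq start are shown for Fpr1, Fpr2 and Ccr1, the 3 receptors with the lowest log2 fold changes of Tβ-MCA against PBS, and, beside them, for Cxcr2 and Cxcr4. They come from the RefSeq promoter table for GRCm38.p6, in which all 9 receptors were found, and are at chr17:17883940-17884189 on the minus strand for Fpr1, chr17:17887574-17887823 on the plus strand for Fpr2, chr9:123968693-123968942 on the minus strand for Ccr1, chr1:74153744-74153993 on the plus strand for Cxcr2 and chr1:128592300-128592549 on the minus strand for Cxcr4. Each is written from 5′ to 3′ on the strand of its gene, and capitals mark the letters GAGGAA (reverse TTCCTC), the core of the motif of the myeloid factor PU.1, and TATAAA (reverse TTTATA), the letters of a TATA box.
Fpr1: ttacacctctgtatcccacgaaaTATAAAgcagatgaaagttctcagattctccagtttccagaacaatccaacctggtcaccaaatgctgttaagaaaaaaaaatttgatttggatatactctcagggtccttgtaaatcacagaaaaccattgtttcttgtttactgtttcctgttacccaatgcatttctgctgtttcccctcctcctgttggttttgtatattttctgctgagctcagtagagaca
Fpr2: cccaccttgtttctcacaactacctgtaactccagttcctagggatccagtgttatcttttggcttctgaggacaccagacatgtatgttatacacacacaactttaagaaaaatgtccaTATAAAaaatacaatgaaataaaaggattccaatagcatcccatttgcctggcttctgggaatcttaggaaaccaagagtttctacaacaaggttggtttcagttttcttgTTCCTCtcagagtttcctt
Ccr1: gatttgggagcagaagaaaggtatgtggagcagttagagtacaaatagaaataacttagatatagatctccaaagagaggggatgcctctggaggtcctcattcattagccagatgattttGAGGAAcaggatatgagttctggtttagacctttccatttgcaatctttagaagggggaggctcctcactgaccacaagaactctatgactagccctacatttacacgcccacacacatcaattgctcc
Cxcr2: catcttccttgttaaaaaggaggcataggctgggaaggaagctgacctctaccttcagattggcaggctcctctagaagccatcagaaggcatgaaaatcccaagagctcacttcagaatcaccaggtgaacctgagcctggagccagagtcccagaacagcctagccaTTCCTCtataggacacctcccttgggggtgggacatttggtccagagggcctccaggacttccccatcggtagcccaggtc
Cxcr4: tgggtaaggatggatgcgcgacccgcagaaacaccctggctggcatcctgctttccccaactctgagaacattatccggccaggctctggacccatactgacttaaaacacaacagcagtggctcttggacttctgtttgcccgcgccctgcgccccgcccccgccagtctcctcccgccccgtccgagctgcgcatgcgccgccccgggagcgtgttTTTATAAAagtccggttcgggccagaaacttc
GAGGAA was found on either strand in the promoters of 5 of 9 receptors (Cxcr2, Ccr1, Fpr2, Ltb4r1 and Ptafr) and in 23.1% of all 27025 promoters of this length. Its first base lay 19 bases before the start of Fpr2, 81 before that of Cxcr2 and 129 before that of Ccr1, and it was not found in the window of Fpr1 or Cxcr4. TATAAA was found in 3 of 9 (Cxcr4, Fpr1 and Fpr2) and in 3504 of the 27025 promoters. It was counted anywhere in the 250 bases. As printed above, it stands close to the start in Cxcr4, near the middle of the window in Fpr2 and near its far end in Fpr1. The C/EBP-type letters TTNCNNAA were found in 5 of 9 (Cxcr4, Ccr1, Fpr1, Fpr2 and C5ar1) and in 36.9% of all, and the AP-1-type letters TGANTCA in 0 of 9 and in 6.87% of all. The promoters of Fpr1 and Fpr2 were 38.4% and 38.8% G or C, and that of Cxcr4 61.2%, against a median of 52% over all promoters.

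Each sample held between 32757389 and 41375925 counted reads, and levels are given as counts per 1000000 reads (CPM) after edgeR's TMM scaling. The 9 markers of neutrophils, of which Cxcr2 is itself one, summed to between 34034 and 39626 CPM with PBS, 32897 and 39415 with TCA, 32098 and 36679 with GCA, and 28500 and 32049 with Tβ-MCA, where all samples lay below those of the other groups. S100a9, a calcium-binding protein of neutrophil cytosol, was at 17455 to 25502 CPM in each sample. Ly6g, the marker by which the labels describe the sort, was at 17.8 to 21.4 CPM with PBS and at 7.54 to 12.9 CPM with Tβ-MCA (log2 fold change -0.99, SE 0.18, adjusted p = 0.0208 by edgeR). Markers of other cells were present. The 15 markers of monocytes and macrophages summed to between 2228 and 2915 CPM with PBS, 2458 and 3078 with TCA, 2219 and 3042 with GCA, and 938 and 2388 with Tβ-MCA. None of the 15 was at 0 in any sample, and Apoe made up 55.5% to 75.9% of the sum. In such bulk samples fewer cells of a type and less RNA per cell cannot be told apart.

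Per length of transcript, Cxcr2 was the most abundant receptor in every group. Its level with PBS was 135.5 ± 8.79 RPKM (SD, n = 3) on the scale of the deposited RPKM, reads scaled by exon length and by all counted reads. It was followed by Fpr2 at 56.6 ± 2.93 RPKM, Cxcr4 at 32.6 ± 1.16, Ptafr at 30.5 ± 0.931, Ccr1 at 28.1 ± 1.07, C5ar1 at 24.1 ± 1.04, Ltb4r1 at 21.2 ± 2.93 and Fpr1 at 18.9 ± 0.645. Cxcr1, the second receptor for CXC chemokines, came last at 0.394 ± 0.212 RPKM. The ranges of C5ar1 and Ltb4r1 overlapped among the PBS samples, as did those of Ltb4r1 and Fpr1, while all other neighbours in this order were apart. With Tβ-MCA the mean of Fpr2 was 35.2 ± 8.42 RPKM, in a range that overlapped with Cxcr4 at 33.8 ± 2.16, and the mean of Ccr1, 17.4 ± 5.36, came after those of C5ar1 and Ltb4r1, with a range that overlapped with that of Ltb4r1. Cxcr2 held 37.7% to 40.2% of the summed RPKM of the 9 receptors with PBS and 39.3% to 41.3% with Tβ-MCA, so its share stayed in a similar range while the sum itself was 340.2 to 361.6 RPKM with PBS and 239.0 to 315.7 RPKM with Tβ-MCA.

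**Figure D1:**
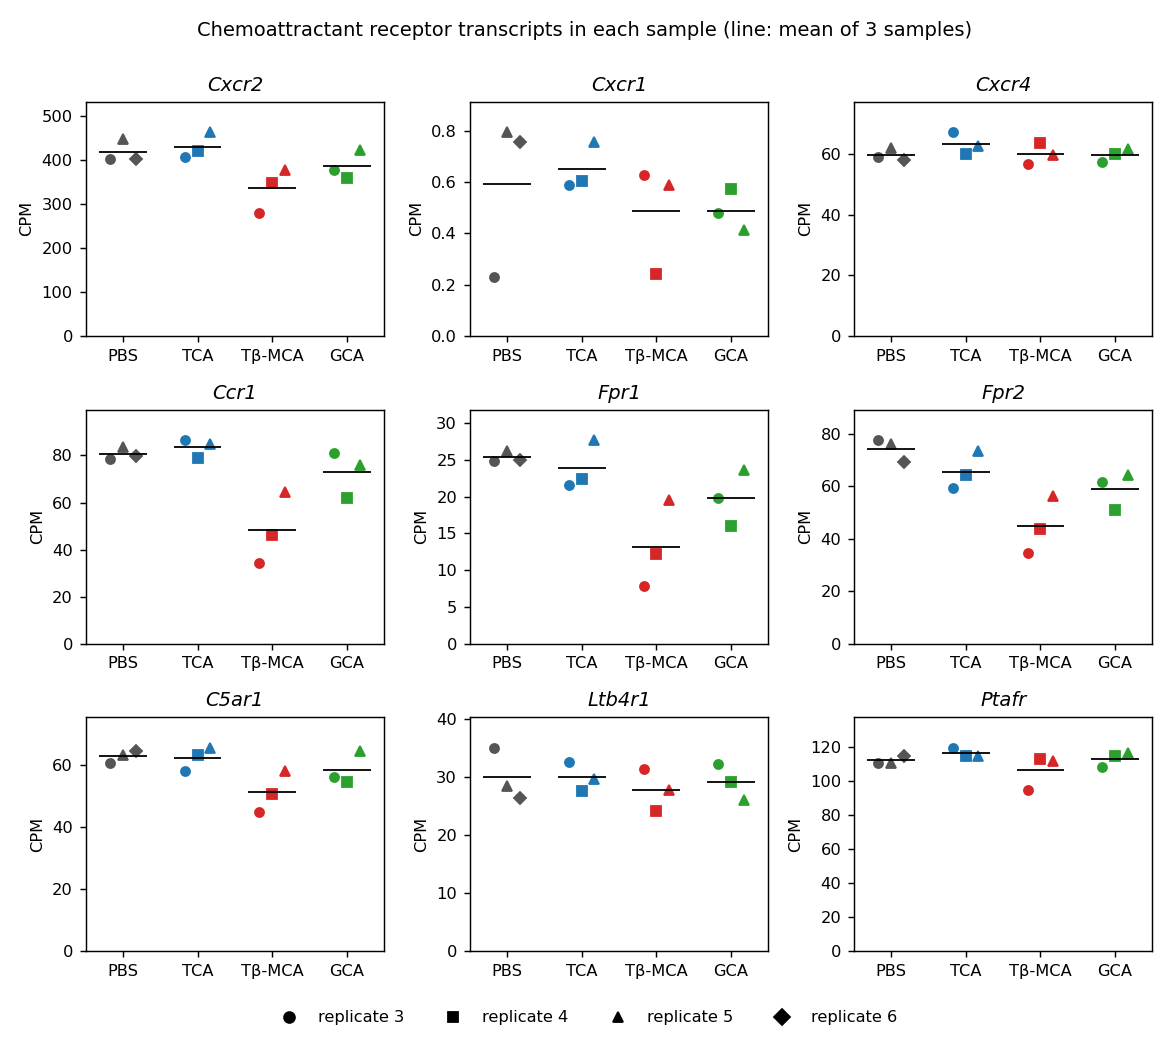
Level of each receptor in CPM (y axis, from 0) in every sample of the 4 groups (x axis), with the mean of 3 samples as a line and the replicate number as the shape of the point. The Tβ-MCA samples of Ccr1, Fpr1, Fpr2, Cxcr2 and C5ar1 sit below all PBS samples, whereas those of Cxcr4, Ltb4r1, Ptafr and Cxcr1 sit among them.

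The comparison of Tβ-MCA with PBS asked which genes this bile acid alters in neutrophils. Of the 9 receptors, Fpr2 and Ccr1 fell, to 60.2% and 60.0% of the mean level with PBS, and none rose at an adjusted p under 0.05 over all genes tested (quasi-likelihood test of edgeR, p adjusted by Benjamini and Hochberg). Of all genes tested, 3.18% were lower and 7.62% changed in either direction by this rule. A p under 0.05 before adjustment, with a lower level, was found for 5 of 9 receptors (Fpr2, Ccr1, C5ar1, Cxcr2 and Fpr1) and for 12.3% of all genes. In the same 5 of 9, all Tβ-MCA samples were lower than all PBS samples, which held for 12.8% of all genes. At the thresholds of the study's methods, a p under 0.05 and a fold change of 2, 0 of 9 receptors changed and 2.95% of all genes did. The median log2 fold change of the 9 receptors was -0.29, beside 0.00 for all genes tested.

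The formyl peptide receptors Fpr2 and Fpr1 were both below PBS in all Tβ-MCA samples. Fpr2 was at 77.5, 76.1 and 69.1 CPM in the PBS samples numbered 3, 5 and 6, and at 34.4, 43.7 and 56.1 CPM in the Tβ-MCA samples numbered 3, 4 and 5. The highest Tβ-MCA sample thus lay below the lowest PBS sample. Its log2 fold change was -0.73 (SE 0.15, 95% interval -1.06 to -0.40, adjusted p = 0.0235 by edgeR). Fpr2 and its neighbour Fpr3, another formyl peptide receptor gene, overlap on the same strand and share 48 of the 1296 exonic bases of Fpr2. Of 1295 windows of 50 bases in transcripts of Fpr2, 408 (31.5%) occur exactly in a transcript of another gene, mostly in the pseudogene Gm5966. That pseudogene is not among the genes of the deposited counts. Whether reads that match both were counted for Fpr2 or dropped is not given, so its level is uncertain to that extent. For Fpr1 1 of 1275 windows was shared. Fpr1 was at 24.8, 26.2 and 24.9 CPM with PBS and at 7.84, 12.2 and 19.6 CPM with Tβ-MCA. The Tβ-MCA samples spread with a coefficient of variation of 45.0%, against 2.96% with PBS. Its log2 fold change of -0.94 (SE 0.27, 95% interval -1.54 to -0.34) had the largest size among the 9, yet did not pass the threshold (adjusted p = 0.0631 by edgeR). It did pass with DESeq2 (adjusted p = 0.0185), with limma (adjusted p = 0.0493) and in edgeR without a filter on low counts.

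Ccr1, a receptor for CCL3 and related chemokines, was at 78.5, 83.4 and 79.7 CPM with PBS and at 34.4, 46.2 and 64.4 CPM with Tβ-MCA. The groups were apart, and the Tβ-MCA samples again spread more widely (coefficient of variation 31.3%, against 3.22%). The log2 fold change was -0.74 (SE 0.18, 95% interval -1.13 to -0.34, adjusted p = 0.0354 by edgeR). With the replicate number as a block in the model, Ccr1 did not pass the threshold, whereas Fpr2, Cxcr2 and C5ar1 did.

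The calls of Fpr2 and Ccr1 rested on the whole set of samples. Without Tβ-MCA replicate 5, 5 of 9 receptors fell, with log2 fold changes of -1.34 for Fpr1, -0.93 for Fpr2, -0.41 for Cxcr2 and -0.39 for C5ar1 and with Ccr1 between Fpr1 and Fpr2, where 9.44% of all genes tested were called lower. Without any one of PBS replicates 3, 5 and 6 or Tβ-MCA replicates 3 and 4, 0 of 9 were called by edgeR. The same held in a model of only the 2 groups. These models also called 0% of all genes lower, or 0.374% without PBS replicate 6. These counts of 0 thus stand beside shares at or near 0% and are not particular to the receptors. The direction of the 5 receptors stayed the same. With DESeq2, the same 5 receptors were called, beside 6.86% of all genes called lower.

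**Figure D2:**
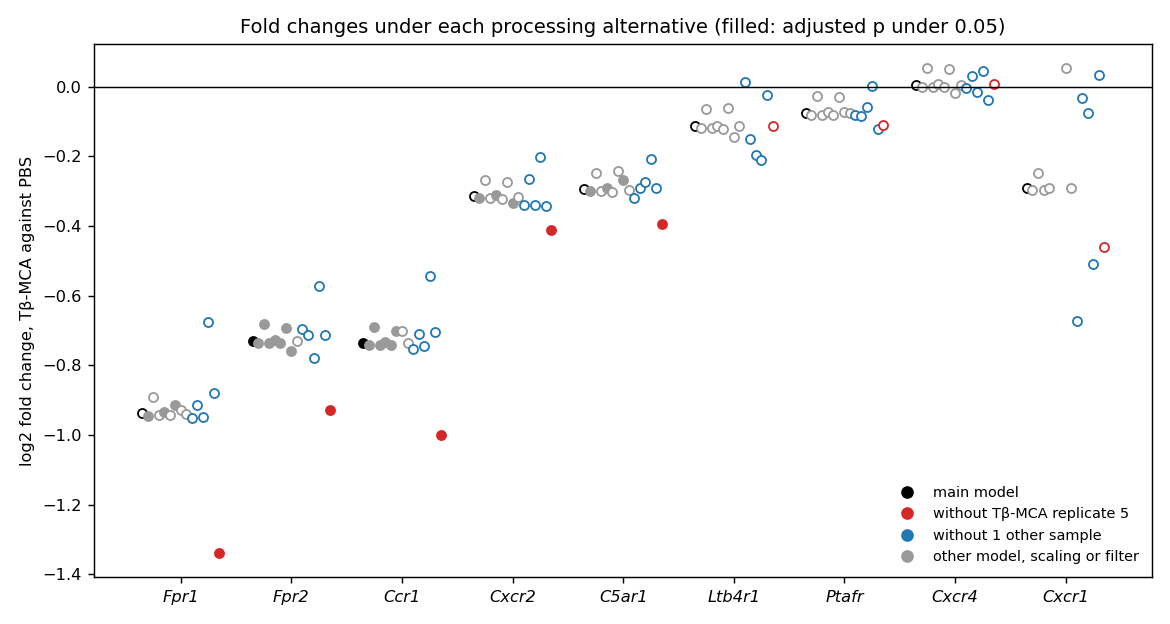
Log2 fold change of each receptor (x axis) with Tβ-MCA against PBS (y axis) in the main model and under each alternative, with filled points for an adjusted p under 0.05. Fpr1, Fpr2, Ccr1, Cxcr2 and C5ar1 stay below 0 in every alternative shown, and all 5 are filled and at their lowest without Tβ-MCA replicate 5.

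Cxcr2 and Cxcr4, the receptors for leaving and for staying in the marrow, gave different values. Cxcr2 was at 402.5, 447.7 and 403.9 CPM with PBS and at 280.5, 348.9 and 378.7 CPM with Tβ-MCA. All Tβ-MCA samples lay below the PBS samples, at 67.1%, 83.5% and 90.6% of the PBS mean. The log2 fold change of -0.31 (SE 0.098, 95% interval -0.52 to -0.11) did not pass the threshold (adjusted p = 0.0618 by edgeR). Cxcr4 was at 59.0, 61.9 and 58.0 CPM with PBS and at 56.5, 63.4 and 59.5 CPM with Tβ-MCA. The groups lay on top of each other, and the log2 fold change was 0.00 with a 95% interval from -0.14 to 0.15. The ratio of Cxcr2 to Cxcr4 in RPKM was 4.05 to 4.29 with PBS, 3.61 to 4.39 with TCA, 3.56 to 4.07 with GCA and 2.94 to 3.77 with Tβ-MCA. The Tβ-MCA samples were below the PBS samples in this ratio, in a design of 3 against 3 samples whose exact permutation test cannot give a two-sided p below 0.1. Cxcr1 was rare in every sample, with 8 to 28 reads, which gave 0.230 to 0.794 CPM with PBS and 0.243 to 0.628 CPM with Tβ-MCA. On so few reads, and with a coefficient of variation of 53.2% among the PBS samples, the 95% interval of its log2 fold change ran from -1.24 to 0.66, and no difference was detectable within it.

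Of the receptors for complement and lipid mediators, C5ar1 was the one with non-overlapping groups. It was at 60.5, 63.0 and 64.6 CPM with PBS and at 44.7, 50.8 and 57.9 CPM with Tβ-MCA, a log2 fold change of -0.29 (SE 0.091, 95% interval -0.49 to -0.10, adjusted p = 0.0603 by edgeR). Ltb4r1, the high-affinity receptor of leukotriene B4, was at 35.0, 28.5 and 26.5 CPM with PBS and at 31.3, 24.1 and 27.7 CPM with Tβ-MCA. Its groups overlapped, and its log2 fold change of -0.11 had a 95% interval from -0.37 to 0.14. Ptafr was at 110.8, 110.7 and 114.9 CPM with PBS and at 94.7, 113.1 and 111.6 CPM with Tβ-MCA. Its log2 fold change was -0.07, with a 95% interval from -0.22 to 0.07. For both receptors these intervals leave room for a fall smaller than that of Fpr2.

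**Figure D3:**
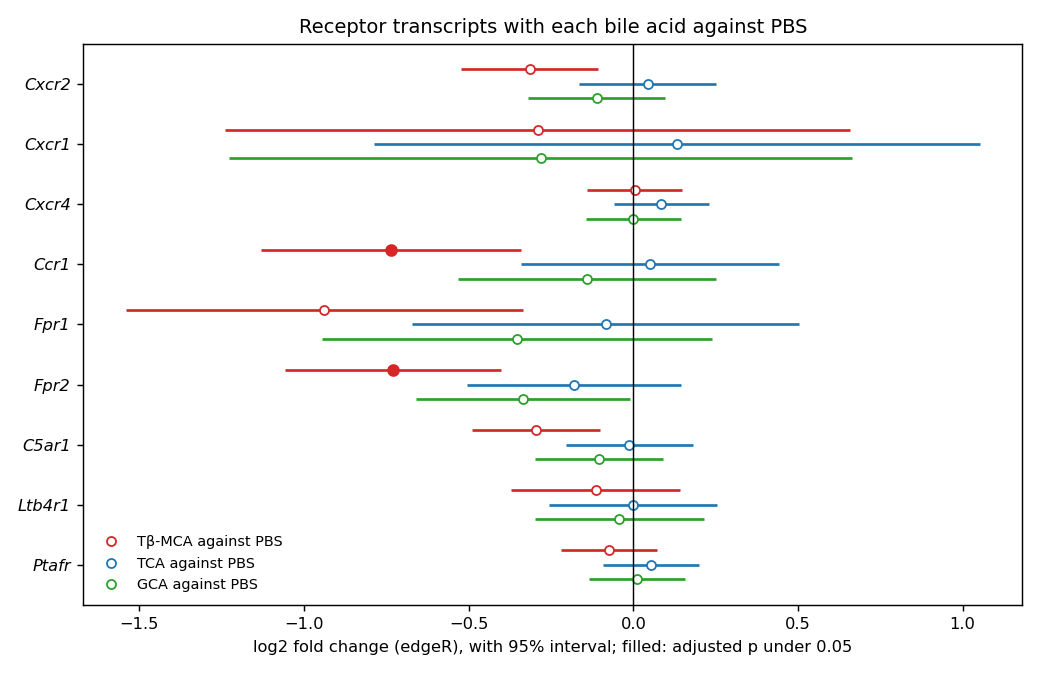
Log2 fold change of each receptor (y axis) with Tβ-MCA, TCA or GCA against PBS (x axis), from edgeR, with 95% intervals as lines and filled points for an adjusted p under 0.05. Fpr2 and Ccr1 with Tβ-MCA are the filled points, at -0.73 and -0.74, and the intervals of TCA include 0 for all 9 receptors.

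The Tβ-MCA samples differed among themselves in the same way for each of the 5 receptors. In all 5, the sample numbered 3 was the lowest and the sample numbered 5 the highest, with Fpr1 at 30.9%, 48.0% and 77.3% of the PBS mean in the samples numbered 3, 4 and 5, Ccr1 at 42.7%, 57.4% and 80.0%, and Fpr2 at 46.3%, 58.8% and 75.6%. The summed markers of monocytes and macrophages were at 35.0%, 49.7% and 89.2% of their PBS mean in these samples, and at 26.9%, 32.3% and 77.2% without Apoe. Among them, Ccr2, a chemokine receptor of monocytes, was at 2.03, 2.70 and 29.2 CPM against 37.3 to 51.2 CPM with PBS, and F13a1, a monocyte transglutaminase, at 54.8, 75.9 and 367 CPM against 519 to 584 CPM with PBS. All 15 monocyte markers had a log2 fold change below 0 (median -0.71). A p under 0.05 before adjustment was found for 5 of 15, beside 12.3% of all genes with a lower level. In edgeR, 0 of 15 passed the adjusted threshold, beside 3.18% of all genes called lower. Without Tβ-MCA replicate 5, 11 of 15 passed, beside 9.44% of all genes called lower. All 9 markers of eosinophils had a log2 fold change below 0 (median -0.93), and 1 (Siglecf) passed the adjusted threshold in edgeR, beside the same 3.18%. Their summed level was 64.6 to 147.3 CPM with Tβ-MCA and 163.6 to 289.1 CPM with PBS. The part of other cells, and of the lower sum of neutrophil markers, in the values of the receptors was not tested.

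**Figure D4:**
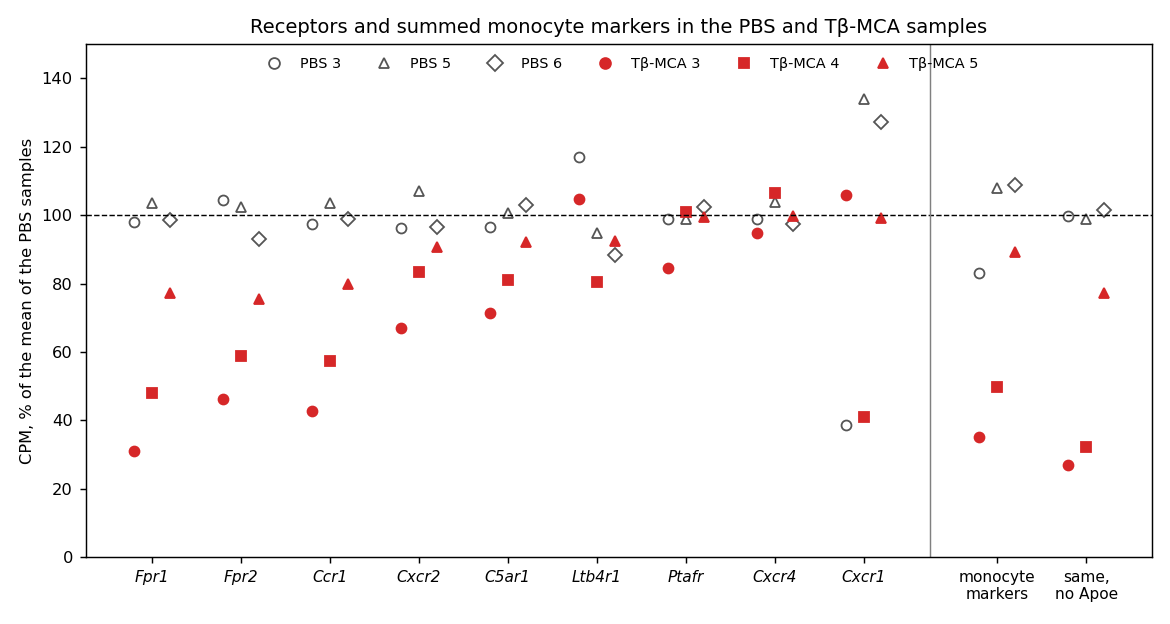
Each receptor (x axis, left of the grey line) and the summed markers of monocytes and macrophages, with and without Apoe (right), as a percentage of the mean of the PBS samples (y axis), in 3 PBS samples (open) and 3 Tβ-MCA samples (filled). In Fpr1 the Tβ-MCA samples stand at 30.9%, 48.0% and 77.3%, in the marker sum at 35.0%, 49.7% and 89.2%, while Cxcr4 stands between 94.8% and 106%.

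TCA, tested against PBS at 200 μM, gave no called receptor. Of 9 receptors 0 passed the adjusted threshold in edgeR, DESeq2 or limma (which left out Cxcr1 for its low RPKM), and 0 had a p under 0.05 before adjustment in edgeR. The background was 0% of genes at the adjusted threshold, with 546 genes at an unadjusted p under 0.05, and 0.465% at the study's thresholds, where 0 of 9 receptors stood. No receptor had all TCA samples below all PBS samples, which 4.76% of all genes had. Cxcr2 was at 407.6, 421.2 and 463.8 CPM with TCA (log2 fold change 0.04, 95% interval -0.16 to 0.25), Fpr1 at 21.6, 22.4 and 27.7 CPM (-0.08, interval -0.67 to 0.50), Fpr2 at 59.1, 64.1 and 73.2 CPM (-0.18, interval -0.51 to 0.14) and Ccr1 at 86.6, 78.9 and 84.8 CPM (0.05, interval -0.34 to 0.44). Cxcr4 was at 67.1, 60.1 and 62.6 CPM, with a log2 fold change of 0.08 and an interval from -0.06 to 0.23. C5ar1, Ltb4r1 and Ptafr had means between 99.2% and 104% of those with PBS.

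GCA, at the same dose, likewise gave 0 of 9 receptors at the adjusted threshold in edgeR, DESeq2 or limma, beside 0% of all genes in edgeR, where 591 genes had an unadjusted p under 0.05. At the study's thresholds it gave 0 of 9 receptors and 0.531% of all genes. The formyl peptide receptors were those whose GCA samples all lay below the PBS samples, 2 of 9 receptors beside 4.83% of all genes. Fpr2 was at 61.5, 50.9 and 64.2 CPM, a log2 fold change of -0.34 (SE 0.15, 95% interval -0.66 to -0.01, adjusted p = 0.999 by edgeR), the one receptor with an unadjusted p under 0.05 in this comparison. Fpr1 was at 19.8, 16.0 and 23.7 CPM, a log2 fold change of -0.35 with an interval from -0.95 to 0.24. Ccr1 at 80.9, 62.1 and 76.0 CPM overlapped with PBS, as did Cxcr2 at 378.5, 359.6 and 422.7 CPM and C5ar1 at 56.2, 54.4 and 64.3 CPM. The GCA sample numbered 4 was the lowest of its group in 5 of 9 receptors. In it the monocyte markers without Apoe were at 69.7% of the PBS mean, against 95.1% and 97.6% in the other GCA samples. With Apoe the sum was at 82.9% in it, against 86.5% and 113.6% in those samples, and at 83.2% in PBS sample 3. Cxcr4, at 57.3 to 61.7 CPM, and Ptafr, at 108 to 116 CPM, had log2 fold changes of 0.00 and 0.01 with GCA.

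Between the bile acids, TCA and GCA were matched in dose and time and differ in the amino acid joined to cholic acid. Of 9 receptors, 0 differed at the adjusted threshold in edgeR, DESeq2 or limma and 0 at an unadjusted p under 0.05, beside 0% and 412 of all genes in edgeR. All 9 log2 fold changes of GCA against TCA were below 0, between -0.41 for Cxcr1 and -0.04 for Ptafr and Ltb4r1, and these groups share samples with the comparisons with PBS. Their 95% intervals were -0.36 to 0.05 for Cxcr2, -0.23 to 0.06 for Cxcr4, -0.58 to 0.20 for Ccr1, -0.86 to 0.32 for Fpr1, -0.48 to 0.17 for Fpr2 and -0.29 to 0.10 for C5ar1. Cxcr1 had all GCA samples below all TCA samples, 1 of 9 receptors beside 4.19% of all genes, on 16 to 28 reads per sample.

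Tβ-MCA and TCA share the taurine and differ in the bile acid, and by the labels also in dose. Ccr1 was lower with Tβ-MCA than with TCA by -0.79 on the log2 scale (SE 0.18, 95% interval -1.18 to -0.39, adjusted p = 0.0434 by edgeR), 1 of 9 receptors beside 1.29% of genes called lower and 3.51% called in either direction. A lower level at an unadjusted p under 0.05 was seen in 5 of 9 receptors (Ccr1, Cxcr2, Fpr2, C5ar1 and Fpr1) and in 10.9% of all genes. The samples of 6 of 9 receptors did not overlap, these 5 and Ptafr, as for 12.1% of all genes. The log2 fold changes were -0.36 for Cxcr2 (adjusted p = 0.0543), -0.55 for Fpr2 (0.0618), -0.28 for C5ar1 (0.0864) and -0.85 for Fpr1 (0.101), all by edgeR. With the replicate number as a block in the model, Ccr1 was not called, whereas Fpr2, Cxcr2 and C5ar1 were. Without Tβ-MCA replicate 5, 5 of 9 receptors were called, beside 8.12% of all genes called lower. Without any other one of the Tβ-MCA or TCA samples, 0 of 9 were called, beside 0% of all genes called lower. In TCA, the monocyte markers without Apoe were at 88.8% to 106% of the PBS mean.

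The 22 other leukocyte chemotactic receptors that could be tested had a median log2 fold change of -0.43 with Tβ-MCA against PBS. Fpr3 fell from 19.1 to 22.9 CPM with PBS to 9.75 to 16.3 CPM (log2 fold change -0.69, adjusted p = 0.0290 by edgeR). Cxcr3, best known as a receptor of interferon-induced chemokines on T cells, rose from 5.32 ± 1.69 to 9.14 ± 1.72 CPM (SD, n = 3, log2 fold change 0.78, adjusted p = 0.0496 by edgeR). The remaining 20 did not pass, among them Ccr2, a marker of monocytes.

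Of 20 genes for ligands and their synthesis, 0 rose and 5 fell (median -0.42), where 3.18% of all genes fell. The 5 were the CC chemokines Ccl3, a ligand of Ccr1, and Ccl4, at log2 fold changes of -0.51 and -0.88, Saa3, a serum amyloid A protein, at -0.63, Camp, the precursor of the Fpr2 ligand cathelin-related peptide, at -1.14, and Cxcl1, a ligand of Cxcr2, at -1.43. Ccl3 had the smallest SE of them (0.10), at 92.1 to 113 CPM with PBS and 63.9 to 79.6 CPM with Tβ-MCA. Cxcl1 was low throughout, at 0.809 to 1.18 CPM with PBS and 0.299 to 0.486 CPM with Tβ-MCA. Saa3 was at 51.7 to 82.3 CPM with TCA and 78.4 to 90.9 CPM with GCA as well, beside 106 to 131 CPM with PBS. For these bile acids 0 of 20 ligand genes were called, as were 0% of all genes.

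The list of signalling genes held those of Gi and, with Gna13, Gna15 and Gnaq, of other G protein classes. Of its 31 genes, 0 rose and 3 fell (median -0.16), against the same 3.18% of all genes. Among the 3 were Plcb3, a phospholipase C activated by G proteins, at -0.43, and Fgr, a Src-family kinase that acts below integrins and chemoattractant receptors, at -0.33. Fgr was at 287 to 290 CPM with PBS and at 210 to 269 CPM with Tβ-MCA. Beside that share, of 22 genes for desensitization and trafficking of receptors 0 rose and 2 fell (median -0.10), the β-arrestin gene Arrb2 at -0.40, with 696 to 788 CPM with PBS and 501 to 650 CPM with Tβ-MCA, and the receptor kinase gene Grk4 at -0.41. In these 4 lists, calls fell to at most 1 in each without any one sample other than Tβ-MCA replicate 5, and without that sample 10 of 22 other receptors, 7 of 20 ligand genes, 11 of 31 signalling genes and 7 of 22 desensitization genes were called, where 18% of all genes were called in either direction. The same monocyte marker values stand beside these lists, and their part in them was not tested.

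**Figure D5:**
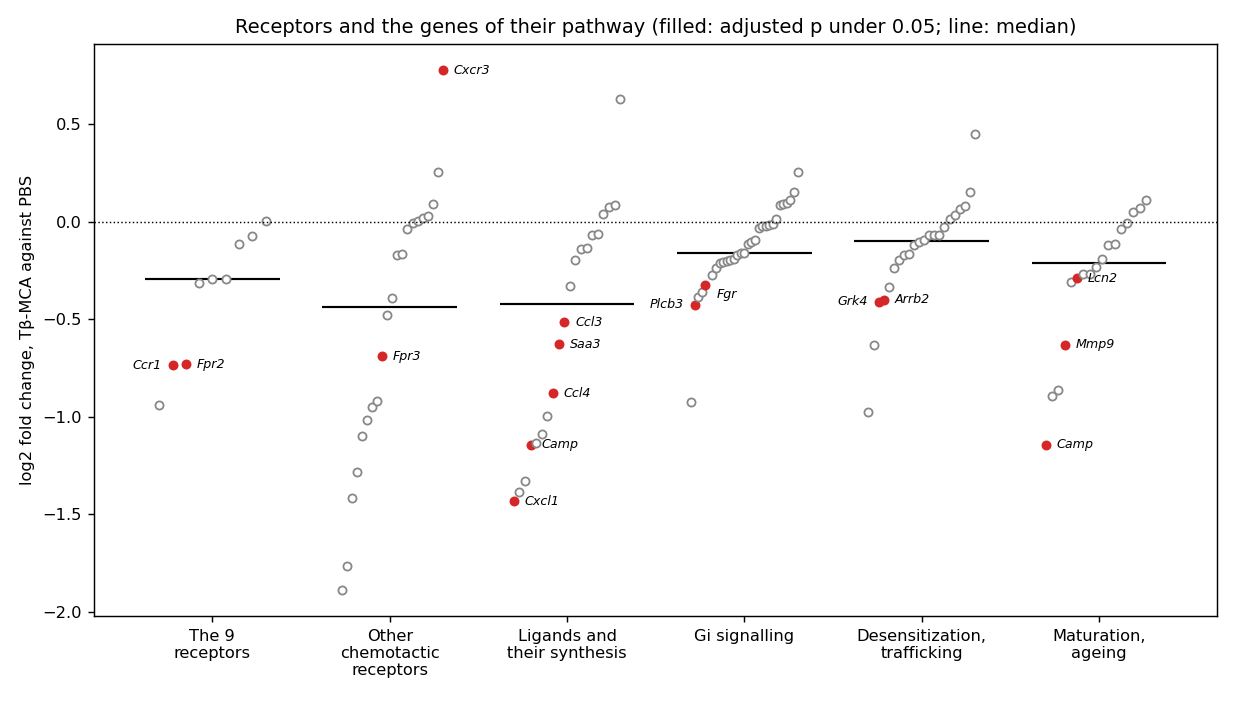
Log2 fold change with Tβ-MCA against PBS (y axis) of the 9 receptors and of the genes of 5 lists of their pathway (x axis), 1 point a gene in ascending order, with the median of each whole list as a line and filled points for an adjusted p under 0.05. The filled genes are named, genes not reported here are not drawn, and the medians lie between -0.43 and -0.10.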

How the data were processed

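RNA of 12 samples of mouse neutrophils was sequenced. The labels name a kit for stranded mRNA libraries. Per the labels and the submitters' processing notes, the authors trimmed reads with Trimmomatic 0.36, aligned them to GRCm38 (mm10) with STAR 2.5.3a and deposited raw counts per gene from featureCounts in Subread 1.5.1. The authors also deposited RPKM values, which matched a recalculation from the counts to within a relative 1.3e-06. The counting setting for strand is not given in the sources used here. The columns named GA were taken as GCA.

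Counts were compared with edgeR 4.0.16 in R 4.3.3 (TMM, filterByExpr by group, robust quasi-likelihood test, all 12 samples in 1 model, Benjamini-Hochberg adjustment over all genes tested). Alternatives were DESeq2 1.42.0, limma 3.58.1 on log2(RPKM + 1) for genes whose mean RPKM reached 0.5, total library size, DESeq2 size factors in edgeR, no filter, a floor of 10 counts in each sample, a model of only the 2 groups, a replicate block and each sample left out. Leaving out samples for the pathway lists was added after seeing the data. The tests were also run on simulated counts with the same spread in every group. That setting lacks the wider spread of the Tβ-MCA samples seen for Fpr1 and Ccr1, so it does not judge their calls. Figures used Python 3.11.15 with pandas 2.3.3 and matplotlib 3.10.9. Gene models are those of GENCODE vM21.

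The receptors, the lists and the rule for naming genes were chosen with earlier results of these data known. All 9 receptors were named, from each list the genes called with Tβ-MCA against PBS (apart from some that are not reported here), and for Cxcr2 and Cxcr4 the 3 genes most and the 1 gene least like them. No sample was left out of the main model. A count under 3 reads was treated as not detectable (0.0725 to 0.0931 CPM), a limit for counting error only.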

Additional observations from a re-analysis of the deposited data

How the results depend on the processing

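With Tβ-MCA against PBS, 2 receptors and 1278 genes were called. DESeq2 called 5 and 2035, no filter on low counts 5 and 2406, and only the 2 groups 0 and 0. Leaving out single samples gave 0 to 5 receptors and 0 to 3076 genes, the highest without Tβ-MCA replicate 5. With Tβ-MCA against TCA, 1 receptor and 588 genes were called. DESeq2 called 5 and 1556, no filter 5 and 2077, limma 0 and 0, only the 2 groups 0 and 72, and single samples left out 0 to 5 and 0 to 2619. For all genes, TCA against PBS gave 1 with DESeq2 and 37 without a filter, GCA against PBS 36 and GCA against TCA 42 without a filter, in place of 0. The replicate number does not mark a shared animal or day in the labels, and deviations of same-numbered samples correlated at 0.0597 to 0.326 (mean 0.189), and those of different-numbered samples at -0.268 to 0.154 (mean -0.072). All same-numbered pairs were thus positive, and those of the samples numbered 3 lay at 0.197 to 0.326. Summed basophil and mast cell markers were at 91.2, 92.0, 79.0 and 92.9 CPM in sample 3 of PBS, TCA, Tβ-MCA and GCA. All samples with other numbers lay at 49.8 to 59.7 CPM. Summed eosinophil markers were highest in sample 3 with PBS, TCA and GCA. With Tβ-MCA they were at 92.4 CPM in sample 3 and 147.3 CPM in sample 5. Whether same-numbered samples share a source was not tested. Between Tβ-MCA and TCA not every sample correlated best with its own number (Tβ-MCA 4 at 0.0805 with TCA 4 and 0.101 with TCA 5). With it as a replicate block, Tβ-MCA against PBS gave 1498 genes and 3 receptors (Fpr2, Cxcr2 and C5ar1, with Ccr1 at adjusted p = 0.134, where its range over all alternatives was 1.2e-14 to 0.152), Tβ-MCA against TCA 2322 genes and 3 receptors (Fpr2, Cxcr2 and C5ar1, with Ccr1 at adjusted p = 0.0574, in a range of 6.3e-17 to 0.196), and TCA against PBS 3 genes. Of 620 receptor values under alternatives, 572 kept their call, 21 lost and 27 gained it, and no called receptor changed direction. In 13 of 45 receptor comparisons, all uncalled with intervals that span 0, the sign changed in some alternative. The cause of these shifts was not tested. The 3 samples per group limit the precision of all values.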

Other observations

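Genes of neutrophil maturation and ageing, 18 of which were tested, had a median log2 fold change of -0.21 with Tβ-MCA against PBS. Of these, 1 rose and 3 fell, where 7.62% of all genes changed in either direction. Those that fell were the granule genes Mmp9, Camp and Lcn2, with log2 fold changes of -0.63, -1.14 and -0.29. Mmp9, a gelatinase, was at 631 to 763 CPM with PBS and at 361 to 578 CPM with Tβ-MCA. Without Tβ-MCA replicate 5, 1 of 18 rose and 6 fell, beside 18% of all genes called, and without any one other sample of these 2 groups 0 were called. With TCA and with GCA against PBS, 0 of 18 passed the adjusted threshold in edgeR, as did 0% of all genes.

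Over the 12 samples, the genes whose TMM log2 CPM was most like that of Cxcr2 were Il1r2, the decoy receptor of interleukin-1, with r = 0.975, Gmfg, a regulator of actin branching in blood cells, with 0.975, and Gm15729 with 0.970. The gene least like it was Gm13238 with -0.970. For Cxcr4 these were Ankrd61 with 0.887, Gm16060 with 0.836 and Zeb1, a transcription factor, with 0.832, and Mbtps1, a protease of the Golgi, with -0.865. These values describe how levels moved together in samples that share 4 treatments, and carry no test. Among other marker lists with Tβ-MCA against PBS, 3 of 9 neutrophil markers fell (Ly6g, S100a8 and Lcn2), as did 1 of 9 of eosinophils (Siglecf) and 1 of 6 of B cells (Cd79a), while 0 of 8 basophil and mast cell, 0 of 6 dendritic cell, 0 of 5 T and NK cell and 0 of 3 erythroid markers passed in edgeR. Of all genes tested, 3.18% were called lower. Without any one sample of these groups other than Tβ-MCA replicate 5, 0 eosinophil or B cell markers and at most 1 neutrophil marker were called. Those models called 0% of all genes lower, or 0.374% without PBS replicate 6.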
